A study of Mus musculus with 2 samples.

Results

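Endothelial cells line blood vessels, and a few of them attach and persist when flushed bone marrow is plated to grow stromal cells. Here they were taken, from 10x single-cell RNA sequencing of adherent marrow cultures, as the barcodes in which at least 4 of 8 endothelial genes (Cdh5, Emcn, Pecam1, Plvap, Kdr, Flt1, Esm1, Adgrl4) had a UMI and in which these genes together held at least 5 of every 10000 UMIs. A UMI, or unique molecular identifier, marks 1 captured mRNA molecule. The rule found 336 cells among 13677 barcodes with at least 500 genes, 1000 UMIs and no more than 15% mitochondrial UMIs, 102 of 5506 in the cKO library and 234 of 8171 in the WT library. The cKO library came from mice with the genotype Prrx1-Cre+/-; Slc31a1 fl/fl, in which the copper importer gene Slc31a1 is floxed and Prrx1-Cre is active in limb mesenchyme, a lineage that does not include the endothelium. The WT library came from Slc31a1 fl/fl littermates that carried no Cre. All mice were C57BL/6J, marrow came from femurs and tibias, cells grew in alpha-MEM with fetal bovine serum, non-adherent cells were washed off, and no osteogenic medium was given. The labels name the cell type as mesenchymal stem cells, and they do not give the number of mice behind a library, or the age of the mice. With 1 library per genotype there were no replicates, so every difference below is one between these 2 libraries, and its interval covers counting error only.

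The endothelium of marrow consists of arterioles, capillaries and wide, leaky sinusoids, and it supplies niche factors such as Cxcl12 and Kitl to blood-forming cells. Growing vessels are led by tip cells, which express Dll4, Apln, Esm1 and Angpt2, while Notch signalling from the tip cell keeps its neighbours as stalk cells. Bone morphogenetic proteins (BMPs) signal in endothelium through receptors and SMAD proteins toward quiescence and vessel identity, with Smad6 and Smad7 as intracellular inhibitors of the pathway.

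The endothelial cells of the cKO library held 3169278 UMIs in all and those of the WT library 4551149, with medians of 21766 UMIs per cell in cKO and 14482 in WT. The whole deposited libraries held 126031142 UMIs in 6140 barcodes for cKO and 152398639 UMIs in 9125 barcodes for WT. Both libraries shared 11 barcodes, of which 1 was an endothelial cell of the cKO library. Levels are given as CPM, the summed UMIs of a gene per 1000000 UMIs of the same cells, and ratios are cKO over WT with exact 95% counting intervals.

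The label was set beside endothelial genes that the rule did not use. The comparison classes left out every cell that met the endothelial rule, so low levels there are partly built in. Of 15 such genes, all 15 were at least 3-fold above the larger of the levels in mesenchymal-marked and macrophage-marked cells of the same libraries, with enrichments between 22.6-fold and 164-fold and a median of 74.5-fold. Angpt2, a ligand of the TIE2 receptor made by endothelium, was at 878 CPM in cKO and 942 CPM in WT endothelial cells, against 4.59 CPM in mesenchymal-marked and 4.53 CPM in macrophage-marked cells. Angpt2, the highest of the 15, was also among the markers given in advance for these cells, and the next highest was Ptprb at 126-fold. Among the genes with the highest enrichment were also Pcdh17, a protocadherin, at 151-fold, Podxl, a surface sialomucin, at 139-fold, and Ptprb, the vascular endothelial phosphatase, at 126-fold. The rule genes are given as a description only. Emcn, the sialomucin endomucin of veins and capillaries, was at 1864 CPM in cKO and 1505 CPM in WT cells. Cdh5 (ENSMUSG00000031871, 8:104101625-104144511 on the plus strand of GRCm38), the adherens junction protein VE-cadherin, was at 1205 CPM in cKO and 1047 CPM in WT cells. Pecam1, an adhesion molecule of endothelial junctions, was at 935 CPM in cKO and 897 CPM in WT cells, against 6.18 CPM in macrophage-marked cells.

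**Figure D1:**
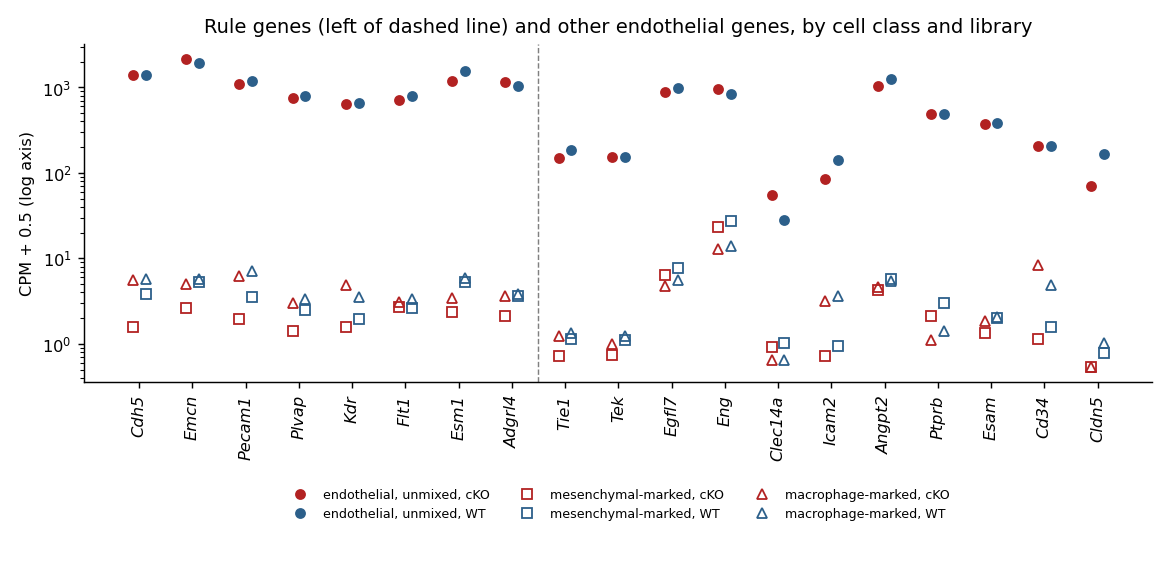
Level of the 8 rule genes (left of the dashed line) and 11 other endothelial genes, as CPM plus 0.5 on a log axis, in unmixed endothelial cells (filled circles), mesenchymal-marked cells (squares) and macrophage-marked cells (triangles), with cKO in red to the left and WT in blue to the right. In each library every gene shown lies far higher in the endothelial cells than in both other classes, with Cdh5 at 1418 CPM in cKO and 1392 CPM in WT cells.

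Promoters of the rule genes Emcn and Flt1 (RefSeq, GRCm38.p6, 250 bases before to 50 after the gene start) are shown because each held 2 copies of an ETS core, and because ETS-family factors such as ERG and FLI1, whose core site reads AGGAAG, are known regulators of endothelial genes. The capitals mark AGGAAG on either strand, so that CTTCCT is the same core on the other strand. Emcn lies at chr3:137340828-137341127 on the plus strand and Flt1, the VEGF receptor VEGFR1, at chr5:147725962-147726261 on the minus strand.
Emcn: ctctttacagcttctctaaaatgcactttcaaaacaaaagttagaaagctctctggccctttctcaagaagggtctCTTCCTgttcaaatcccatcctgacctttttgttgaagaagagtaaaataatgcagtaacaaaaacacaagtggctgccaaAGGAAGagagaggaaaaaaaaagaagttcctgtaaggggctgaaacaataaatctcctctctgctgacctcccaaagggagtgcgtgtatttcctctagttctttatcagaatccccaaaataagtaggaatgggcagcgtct
Flt1: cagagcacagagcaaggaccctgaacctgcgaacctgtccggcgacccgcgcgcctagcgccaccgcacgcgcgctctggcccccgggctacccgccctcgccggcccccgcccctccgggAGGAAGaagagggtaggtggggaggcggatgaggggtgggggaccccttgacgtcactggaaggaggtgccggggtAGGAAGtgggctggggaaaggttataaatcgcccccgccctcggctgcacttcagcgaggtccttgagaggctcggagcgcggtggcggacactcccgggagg
Emcn had 2 matches, 174 and 93 bases before the start, and Flt1 had 2, at 129 and 53 bases before it. Of the 8 rule genes 5 had an entry, and 3 of these held the core, with 1 copy in Adgrl4 and none in Kdr and Esm1. It was also in 40.8% of the promoters of 228 endothelial-enriched genes, in 33.5% of those of 3303 genes tested here and in 35.4% of all 32851 promoters.

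Many of the barcodes also carried RNA of another class. A second class was called where at least 4 of 8 mesenchymal genes (such as Prrx1 and Pdgfra) or at least 4 of 8 macrophage genes (such as Csf1r and C1qa) were present and held at least 10 of every 10000 UMIs. By this measure 28 of the 102 cKO cells (27.5%) and 107 of the 234 WT cells (45.7%, exact 95% interval 39.2 to 52.3%) were mixed. The mesenchymal rule was met by 21 cKO and 89 WT cells, the macrophage rule by 10 cKO and 34 WT cells, and both by 3 cKO and 16 WT cells. Mixed barcodes were shallower, with medians of 14682.5 UMIs in cKO and 7727 in WT, against 26697.5 UMIs in cKO and 24364 in WT for the unmixed cells. The main results are therefore given for all endothelial cells and for the 74 cKO and 127 WT cells that met no other rule.

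**Figure D2:**
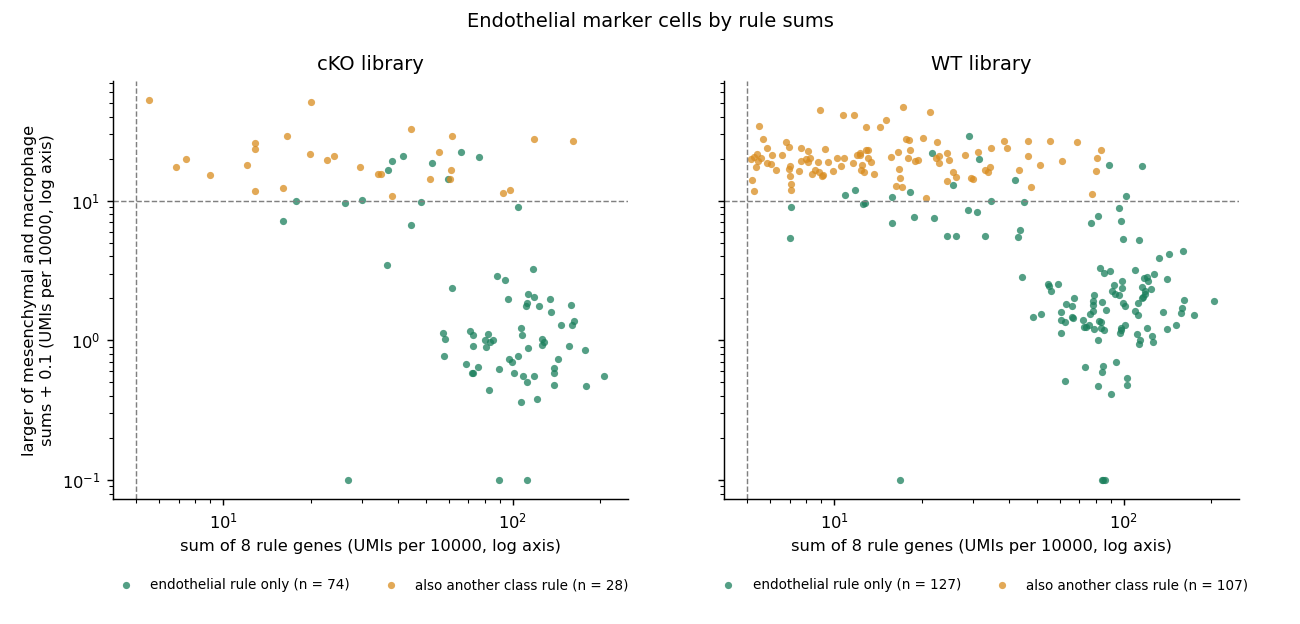
Each point is 1 endothelial cell of the cKO (left) or WT (right) library, placed by the sum of the 8 rule genes and by the larger of its mesenchymal and macrophage sums plus 0.1, both in UMIs per 10000 on log axes, with dashed lines at the sums of 5 and 10. Orange points also met another class rule (28 cKO and 107 WT cells), and a green point above the horizontal line had the sum but fewer than 4 genes of that class.

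The rule sum had a median of 80.2 per 10000 in cKO (5.52 to 207) and 40.7 per 10000 in WT cells (5.17 to 205). In unmixed cells the medians were 96.5 in cKO and 84.0 in WT. Just inside the limit, 4 cKO and 42 WT cells had a sum between 5 and 10, of which 2 of the WT cells were unmixed. Just outside it, 9 cKO and 64 WT barcodes had at least 4 of the genes with a smaller sum (highest 2.50 in cKO and 4.88 in WT), and 15 cKO and 58 WT barcodes reached the sum with exactly 3 genes. All 8 rule genes were seen in 71 of 102 cKO cells and 103 of 234 WT cells.

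Marker genes of other cells were summed over each list. The 13 mesenchymal markers summed to 3246 CPM in cKO and 5348 CPM in WT endothelial cells, and to 1751 CPM in cKO and 1096 CPM in WT once mixed cells were left out. In unmixed cells Lum was at 0 in both libraries and Dcn at 0 in cKO. The 13 macrophage markers summed to 875 CPM in cKO and 1534 CPM in WT, and to 451 CPM in cKO and 779 CPM in WT unmixed cells. The 9 neutrophil markers summed to 344 CPM in cKO and 504 CPM in WT, and to 392 CPM in cKO and 252 CPM in WT unmixed cells, where 1 unmixed cKO cell gave 58.1% of the cKO UMIs of the neutrophil gene S100a9. The 9 mural cell markers summed to 814 CPM in cKO and 971 CPM in WT, and to 556 CPM in cKO and 433 CPM in WT unmixed cells. Rgs5 and Myh11 were at 0 in the unmixed cells of both libraries. Only 3 of the 9 reached 50 CPM in unmixed cells, 1 of them at least 1.5-fold higher in cKO and 2 at least 1.5-fold lower. Their median log2 ratio was -1.77, so the mural sum does not show a common direction. These sums move with the genotype, and their part in the results below was not tested.

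Endothelial cells were a smaller share of the cKO library, and the difference was smaller without mixed barcodes. They were 1.85% of cKO barcodes (exact 95% interval 1.51 to 2.24%) and 2.86% of WT barcodes (2.51 to 3.25%), a difference of -1.01 percentage points (-1.52 to -0.504). Unmixed cells were 1.34% of cKO and 1.55% of WT barcodes, and the interval of that difference, -0.21 points, ran from -0.616 to 0.195. A rule of 5 genes in place of 4 gave a difference of -0.503 points and one of 3 genes -1.45 points, and a rule sum of 10 per 10000 gave -0.570 points.

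The endothelium is not an intended target of Prrx1-Cre, and the level of Slc31a1 (ENSMUSG00000066150, 4:62360727-62391769, plus strand) was compared with that in mesenchymal-marked cells, which are. In endothelial cells Slc31a1 had 119 UMIs (37.5 CPM) in cKO and 213 UMIs (46.8 CPM) in WT, a ratio of 0.802 (0.636 to 1.01). In unmixed cells the ratio was 0.825 (0.624 to 1.08). In mesenchymal-marked cells of the same libraries it was 0.347, so the endothelial ratio was 2.31 times the mesenchymal one (1.83 to 2.92). In macrophage-marked cells the ratio was 1.05. Droplet reads near the polyadenylated end of the gene need not report the deleted part of a floxed gene, and the labels do not give which exons were floxed. Prrx1 itself, a gene of limb mesenchyme, was at 114 CPM in cKO and 113 CPM in WT endothelial cells, and at 47.9 CPM in cKO and 19.2 CPM in WT unmixed cells. It is a gene of the mesenchymal rule, so the level in unmixed cells is shaped by that rule and is a description only. Over all endothelial cells, 1 cKO cell gave 17.8% of the cKO Prrx1 UMIs.

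Over all endothelial cells, 4251 genes reached 50 CPM in 1 or both libraries and could be called. Of these, 54 were at least 1.5-fold higher in cKO with a counting interval that left out 1 (1.27% of the genes tested), and 112 were lower by the same rule (2.63%), 3.9% in all. The same rule called 99 of 4211 genes higher (2.35%) and 146 lower (3.47%) in unmixed cells, 5.82% in all. Of the calls, 32.5% were higher in all cells and 40.4% in unmixed cells, and with a median-of-ratios scaling 53.2% of those in unmixed cells were higher (126 higher and 111 lower). Of the genes called higher in all cells 40 were also called in unmixed cells, and of those called lower 66 were. Among the 316 genes enriched at least 3-fold in endothelial cells, 16 were called higher and 31 lower, and of 352 such genes in unmixed cells 12 were called higher and 63 lower. Below, "higher" and "lower" with no other word mean that a gene passed this rule in all cells. For gene lists, a second, looser count was kept of genes with at least 20 CPM whose interval lay above 1 or below 1. Over all 7349 such genes, 11.6% had an interval above 1 and 16.6% had one below 1 (11.8% and 14.8% of 7165 genes in unmixed cells), and the median log2 ratio over all genes was -0.03.

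**Figure D3:**
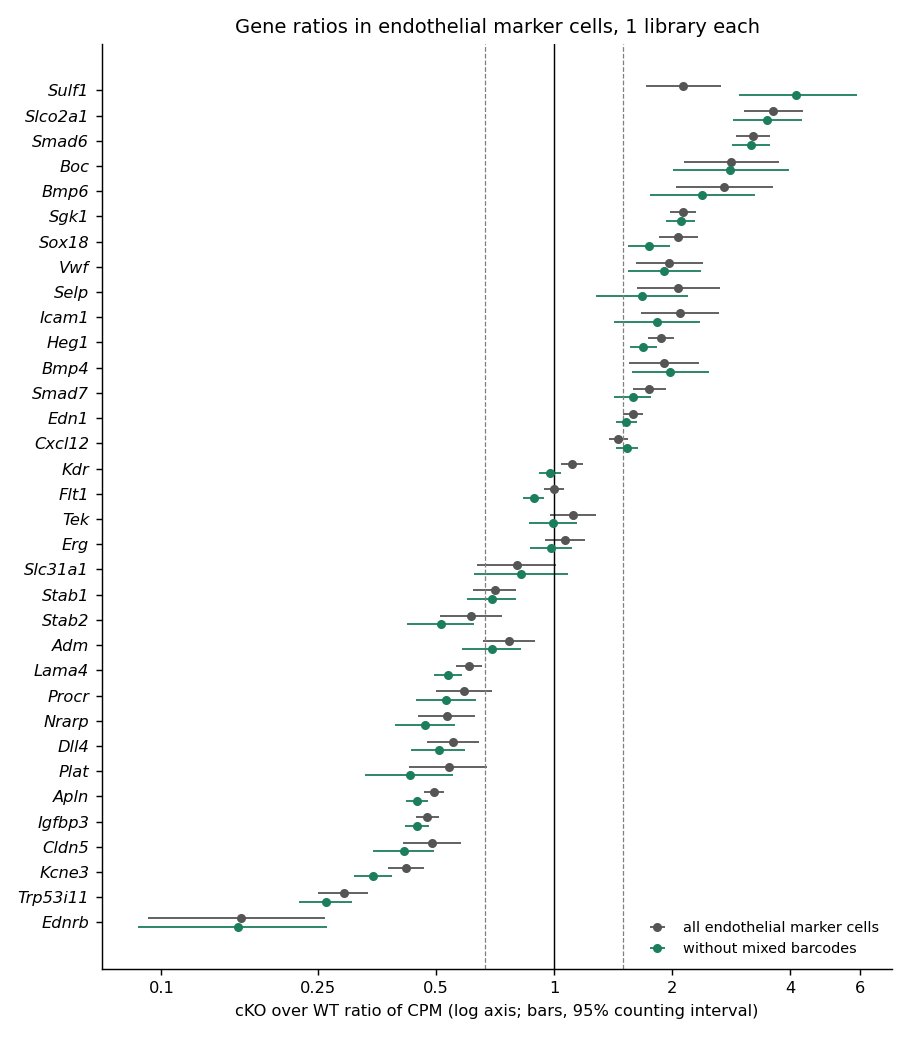
Ratio of CPM, cKO over WT, on a log axis for 34 genes in all endothelial cells (grey) and in unmixed cells (green), with bars for the 95% counting interval and dashed lines at 1.5-fold in each direction. Slco2a1 (3.61) and Smad6 (3.21) lie at the high end, Trp53i11 (0.291) and Ednrb (0.160) at the low end, and Kdr, Flt1, Tek and Erg near 1.

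Genes of BMP signalling were among those with the highest ratios. Smad6 (ENSMUSG00000036867, 9:63953076-64022059, minus strand), the inhibitory SMAD of the BMP branch, had 1279 UMIs (404 CPM) in cKO and 572 UMIs (126 CPM) in WT endothelial cells, a ratio of 3.21 (2.91 to 3.55). In unmixed cells Smad6 was at 451 CPM in cKO and 142 CPM in WT, a ratio of 3.17 (2.83 to 3.55). The ratio of Smad6 was 1.26 in mesenchymal-marked and 2.08 in macrophage-marked cells. Among unmixed cells thinned to 20000 UMIs, 46 of 52 cKO cells (88.5%, 76.6 to 95.6%) and 46 of 74 WT cells (62.2%) had a Smad6 UMI, against 59.1% of cKO and 34.4% of WT macrophage-marked cells at the same depth. Without thinning the shares in unmixed cells were 83.8% in cKO and 52.0% in WT, against 34.6% in cKO and 20.9% in WT macrophage-marked cells, whose median depths were 8180 UMIs in cKO and 9125 UMIs in WT. Its promoter is shown because it held, across the start, the palindrome GTCTAGAC (in capitals), which SMAD proteins can bind. It lies at chr9:64022010-64022309 on the minus strand.
Smad6: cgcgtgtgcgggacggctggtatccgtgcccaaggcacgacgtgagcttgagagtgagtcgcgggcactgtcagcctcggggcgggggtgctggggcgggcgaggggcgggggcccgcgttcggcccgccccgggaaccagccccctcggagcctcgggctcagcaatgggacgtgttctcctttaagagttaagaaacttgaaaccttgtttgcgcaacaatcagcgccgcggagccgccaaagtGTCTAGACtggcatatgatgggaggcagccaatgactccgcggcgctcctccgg
The palindrome begins 4 bases before the start, and occurred in 0.213% of all 32851 promoters and in 10 of 3303 tested genes. No AGGAAG core was found in this window.

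Smad7, the inhibitory SMAD of the TGF-beta branch, was higher at 294 CPM in cKO and 168 CPM in WT, a ratio of 1.75 (1.59 to 1.93), and 1.59 in unmixed cells. The ligand Bmp4 (14:46383520-46390669, minus strand) was higher too, at 70.4 CPM in cKO and 36.9 CPM in WT, a ratio of 1.91 (1.55 to 2.34), and the ratio was 1.98 in unmixed cells. The ligand Bmp6 was at 47.0 CPM in cKO and 17.4 CPM in WT, a ratio of 2.71 (2.05 to 3.60), and reached 52.5 CPM in cKO, against 22.1 CPM in WT, in unmixed cells. Another ligand did not share this direction, with Bmp2 at 13.9 CPM in cKO and 20.2 CPM in WT. The cell with the most Bmp4 UMIs gave 21.5% of them in cKO and 8.33% in WT. For Bmp6 the top cell gave 18.8% in cKO and 20.3% in WT, and for Bmp2 29.5% and 17.4%. The transducer Smad1 was at 135 CPM in cKO and 193 CPM in WT, a ratio of 0.70 in all cells, and it was called lower in unmixed cells (0.609, 0.534 to 0.694). Eng, the co-receptor endoglin, had a ratio of 1.30, and 1.14 in unmixed cells. The classical BMP targets Id1 and Id3 had ratios of 1.29 and 1.27 in all cells but 1.04 and 1.06 in unmixed cells, and the ratio of Id1 was 2.54 in mesenchymal-marked and 2.38 in macrophage-marked cells. Of 16 genes of the BMP and TGF-beta list past 20 CPM, 9 had an interval above 1 and 4 below 1, and 6 and 3 in unmixed cells. Of 14 past 50 CPM, 3 were called higher and none lower, against 1.27% and 2.63% over all genes tested. In unmixed cells 4 of 15 were called higher and 1 lower, against 2.35% and 3.47%. The median log2 ratio of that list was 0.20, and 0.04 in unmixed cells.

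Transcription factors of the SOXF family, which specify arterial and venous endothelium, had ratios above 1. Sox18 was higher, at 234 CPM in cKO and 113 CPM in WT, a ratio of 2.07 (1.85 to 2.32), and 1.74 in unmixed cells. Sox17 was at 132 CPM in cKO and 89.6 CPM in WT, and Sox7 at 113 CPM in cKO and 77.1 CPM in WT, with ratios of 1.47 and 1.46 that fell short of 1.5-fold, and of 1.38 and 1.27 in unmixed cells. The shear-responsive factors differed in direction, with Klf4 at 1.46 and Klf2 at 0.774, and at 1.49 and 0.735 in unmixed cells. Erg and Fli1, the ETS factors that hold endothelial identity, had ratios of 1.07 (0.948 to 1.20) and 1.03 (0.944 to 1.13), and of 0.982 and 0.943 in unmixed cells. Over 22 endothelial transcription factors 8 had an interval above 1 and 5 below 1, and the median log2 ratio was 0.13, and 0.00 in unmixed cells.

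Genes of venous endothelium and of leukocyte adhesion were higher in several cases. Selp, the P-selectin of Weibel-Palade bodies, was at 52.4 CPM in cKO and 25.3 CPM in WT, a ratio of 2.07 (1.62 to 2.65). Vwf, the von Willebrand factor stored in the same bodies, was at 77.3 CPM in cKO and 39.3 CPM in WT, a ratio of 1.97 (1.61 to 2.40). It was seen in 25 cKO and 37 WT cells, and the top cell gave 18.4% of its cKO and 29.6% of its WT UMIs. Though on the venous list, Vwf was a leading gene of the cluster led by Gja5, described below. Icam1, a ligand of leukocyte integrins, was at 60.6 CPM in cKO and 29.0 CPM in WT, a ratio of 2.09 (1.66 to 2.63). Sele, the E-selectin, rested on 51 UMIs in cKO and 19 in WT and was below the level needed for a call. Selp, Sele and the ligand Bmp6 were also leading genes of 1 cluster, described below, that held 17 cKO and 11 WT cells. The part of that cluster in their ratios was not tested. In unmixed cells the ratios were 1.67 for Selp, 1.91 for Vwf and 1.83 for Icam1. Of 7 venous genes past 20 CPM, 4 had an interval above 1 and 1 below 1, with a median log2 ratio of 0.32, and 0.39 in unmixed cells. Of 9 adhesion and inflammation genes past 20 CPM, 4 had an interval above 1 and 3 below 1, with a median of 0.13, and 0.01 in unmixed cells. Icam2, a constitutive endothelial adhesion molecule, was at 73.8 CPM in cKO and 103 CPM in WT, a ratio of 0.715, and was called lower in unmixed cells (0.603, 0.507 to 0.715).

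Several secreted, transport and junction genes of the vessel wall were also higher. Slco2a1 (9:102988712-103096002, plus strand), which takes up prostaglandins, was higher, at 149 CPM in cKO and 41.3 CPM in WT, a ratio of 3.61 (3.04 to 4.30). In unmixed cells it was 3.49 (2.86 to 4.29), and it was 1.19 in mesenchymal-marked and 0.952 in macrophage-marked cells. At 20000 UMIs, 65.4% of unmixed cKO and 37.8% of unmixed WT cells had a Slco2a1 UMI, against 6.47% of cKO and 5.59% of WT macrophage-marked cells, and without thinning the shares in unmixed cells were 63.5% in cKO and 33.9% in WT. Edn1, the vasoconstrictor endothelin-1, was at 769 CPM in cKO and 483 CPM in WT, a ratio of 1.59 (1.5 to 1.69). Heg1, a junctional receptor needed for heart and vessel integrity, was at 506 CPM in cKO and 270 CPM in WT, a ratio of 1.87 (1.74 to 2.02). Sgk1, a kinase induced by serum and glucocorticoid, was at 546 CPM in cKO and 256 CPM in WT, a ratio of 2.13 (1.97 to 2.29). Without mixed barcodes the ratios were 1.53 for Edn1, 1.69 for Heg1 and 2.10 for Sgk1. Of 8 nitric oxide and vasoactive genes 4 had an interval above 1 and 1 below 1, with a median of 0.12, and 0.01 in unmixed cells. Clec14a, a lectin-like receptor of endothelium, was at 49.2 CPM in cKO and 21.1 CPM in WT (2.33, 1.80 to 3.04), and passed the rule in unmixed cells at 2.00.

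Niche factors went in both directions. The chemokine Cxcl12 was at 766 CPM in cKO and 526 CPM in WT, a ratio of 1.46 (1.38 to 1.54), and passed the rule in unmixed cells at 1.53. The other niche factor, Kitl, was at 447 CPM in cKO and 493 CPM in WT, a ratio of 0.908, and 0.799 in unmixed cells. Csf1, the growth factor of macrophages, was at 142 CPM in cKO and 111 CPM in WT (1.28), and at 104 CPM in cKO and 41.9 CPM in WT unmixed cells (2.48, 2.00 to 3.10). Inhbb, a subunit of activin B, was lower at 42.6 CPM in cKO and 88.5 CPM in WT, a ratio of 0.481 (0.393 to 0.586), and 0.448 in unmixed cells. Of 20 angiocrine and niche genes past 20 CPM, 8 had an interval above 1 and 9 below 1, with a median of 0.01, and -0.09 in unmixed cells.

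Arterial genes went in both directions. Gja5, the connexin of arterial endothelium, was at 33.8 CPM in cKO and 20.9 CPM in WT (1.62, 1.22 to 2.16), below the level needed for a call, and the interval in unmixed cells, 0.992 to 1.83, included 1. Of 14 arterial genes past 20 CPM, 7 had an interval above 1 and 2 below 1, and the median was 0.17, and 0.04 in unmixed cells. Of the 10 past 50 CPM, 1 was called in each direction.

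Of 16 genes on the tip cell list, 15 reached 50 CPM. Of these, 5 were lower in cKO cells (Apln, Dll4, Kcne3, Trp53i11 and Igfbp3) and none was higher, against 2.63% lower over all genes tested. Endothelial-enriched genes as a whole were lower more often than the other genes, 31 of 316 against 81 of 3935. In unmixed cells 6 of 16 tip cell genes and 63 of 352 endothelial-enriched genes were called lower. Apln (ENSMUSG00000037010, X:48025146-48034853, minus strand), the secreted peptide apelin of sprouting vessels, had 1511 UMIs (477 CPM) in cKO and 4379 UMIs (962 CPM) in WT, a ratio of 0.496 (0.467 to 0.525). In unmixed cells Apln was at 576 CPM in cKO and 1287 CPM in WT, a ratio of 0.448 (0.421 to 0.476). At 20000 UMIs 88.5% of unmixed cKO and all 74 unmixed WT cells had an Apln UMI, against 2.59% of cKO and 6.47% of WT macrophage-marked cells, and without thinning the shares were 89.2% in cKO and 92.9% in WT unmixed cells. The Apln promoter is shown beside those of Emcn and Smad6 because the gene carries the largest number of UMIs among the called tip cell genes. It lies at chrX:48034804-48035103 on the minus strand, with AGGAAG on either strand in capitals.
Apln: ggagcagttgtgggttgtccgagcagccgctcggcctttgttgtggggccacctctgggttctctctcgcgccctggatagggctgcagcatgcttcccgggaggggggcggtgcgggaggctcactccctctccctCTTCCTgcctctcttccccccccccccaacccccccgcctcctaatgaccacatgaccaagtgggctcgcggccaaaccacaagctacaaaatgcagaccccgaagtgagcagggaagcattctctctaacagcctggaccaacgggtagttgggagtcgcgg
It had 1 match, 113 bases before the start, and no GTCTAGAC. The receptor of apelin, Aplnr, had a ratio of 1.06 (0.875 to 1.28), and 0.947 in unmixed cells.

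Trp53i11 (2:93187548-93201759, plus strand), a p53-inducible gene, was lowest among the called tip cell genes, at 70.4 CPM in cKO and 242 CPM in WT, a ratio of 0.291 (0.251 to 0.336). Kcne3, a potassium channel subunit, was at 152 CPM in cKO and 362 CPM in WT, a ratio of 0.420 (0.379 to 0.465). Igfbp3, a binding protein of insulin-like growth factors, was at 348 CPM in cKO and 732 CPM in WT, a ratio of 0.476 (0.444 to 0.510), and 1 cKO cell gave 28.4% of its cKO UMIs. At 20000 UMIs, 51.9% of unmixed cKO and 85.1% of unmixed WT cells had a Trp53i11 UMI, against 2.59% of cKO and 2.65% of WT macrophage-marked cells, and without thinning the shares were 55.4% in cKO and 70.9% in WT unmixed cells. The unmixed cells gave ratios of 0.262 for Trp53i11, 0.346 for Kcne3 and 0.447 for Igfbp3. Of the 16 tip cell genes, all past 20 CPM, 14 had a ratio below 1, 10 had an interval below 1 and 1 had an interval above 1. The list median was -0.19, and -0.37 in unmixed cells. Members closer to 1 were Esm1 at 0.871, Angpt2 at 0.931 and Adm, the peptide adrenomedullin, at 0.769, and Pdgfb, which recruits mural cells, was at 1.27. Mcam, the adhesion molecule CD146, was at 323 CPM in cKO and 424 CPM in WT (0.762), and was called lower in unmixed cells (0.666, 0.613 to 0.722). Esm1 is a rule gene, so its ratio is a description.

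The Notch ligand of tip cells and 1 target of the pathway were lower, while another target, Hey1, had a ratio above 1. Dll4 was at 75.1 CPM in cKO and 136 CPM in WT, a ratio of 0.554 (0.475 to 0.644). Nrarp, a Notch target that limits the signal, was at 62.5 CPM in cKO and 117 CPM in WT, a ratio of 0.532 (0.45 to 0.628). At 20000 UMIs 46.2% of unmixed cKO and 79.7% of unmixed WT cells had a Dll4 UMI, against 0.862% of cKO and 1.18% of WT macrophage-marked cells, and without thinning the shares were 55.4% in cKO and 65.4% in WT unmixed cells. In unmixed cells the ratios were 0.508 for Dll4 and 0.470 for Nrarp. The receptors Notch1 and Notch4 had ratios of 1.12 and 0.891, and the other ligand Jag1 had 1.03, against 0.977, 0.773 and 0.941 in unmixed cells. Hey1, a transcriptional target, was at 39.8 CPM in cKO and 18 CPM in WT, a ratio of 2.21. Lfng, a modifier of Notch receptors, was at 22.4 CPM in cKO and 11.6 CPM in WT, a ratio of 1.92. Both were below the level needed for a call. Of 12 Notch genes past 20 CPM, 2 had an interval above 1 and 5 below 1, with a median log2 ratio of -0.11, and -0.19 in unmixed cells.

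Genes of several lists, named by the size of their ratios, were lower as well. Kcnj8 and Abcc9, the paired subunits of a potassium channel that mural cells also express, were lower, Kcnj8 at 25.2 CPM in cKO and 75.8 CPM in WT and Abcc9 at 26.2 CPM in cKO and 77.8 CPM in WT, with ratios of 0.333 and 0.337. In unmixed cells these ratios were 0.254 and 0.287, and in mesenchymal-marked cells Abcc9 had a ratio of 1.02. Cldn5, the claudin of endothelial tight junctions, was at 60.3 CPM in cKO and 123 CPM in WT, a ratio of 0.490 (0.413 to 0.578). Ednrb, a receptor of endothelins, had 18 UMIs in cKO and 162 UMIs in WT, a ratio of 0.160 (0.0922 to 0.260), but stayed below 50 CPM. Sncaip, the synphilin gene, was at 42.0 CPM in cKO and 106 CPM in WT, a ratio of 0.397 (0.325 to 0.482). With mixed cells left out the ratios were 0.414 for Cldn5, 0.157 for Ednrb and 0.342 for Sncaip. Kcnj8, Abcc9, Cldn5 and Ednrb were also leading genes of 1 cluster, described below, that held 5 cKO and 45 WT cells. The part of that cluster in these ratios was not tested. Other junction genes were closer to 1, and the list of 17 had a median of 0.09, and -0.05 in unmixed cells. Of the 16 past 50 CPM, 1 was called lower and none higher.

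Of the scavenger and lipid uptake list 4 of 10 genes past 50 CPM were lower and none was higher. Of the sinusoidal list 3 of 8 were lower and none was higher, against 2.63% lower over all genes tested. Of the 316 endothelial-enriched genes 31 were lower. In unmixed cells the 2 lists had 3 of 8 and 2 of 7 lower, against 3.47% over all genes and 63 of 352 endothelial-enriched genes. The 2 lists share Stab1, Stab2, Mrc1 and Lyve1. Lpl, lipoprotein lipase, was lower at 0.384 but had a ratio of 1.04 in unmixed cells. Stab2, the hyaluronan receptor of sinusoids, was at 54.3 CPM in cKO and 88.1 CPM in WT, a ratio of 0.616 (0.512 to 0.738), and 0.515 in unmixed cells. With cells thinned to 3731 UMIs the ratio of Stab2 was 1.68, and with cells weighted equally it was 1.04. Stab1, its relative, was at 121 CPM in cKO and 171 CPM in WT, a ratio of 0.706, and 0.694 in unmixed cells. Gpihbp1, which anchors lipoprotein lipase to capillary walls, was at 51.7 CPM in cKO and 83.1 CPM in WT, a ratio of 0.623 (0.516 to 0.75), and 0.592 in unmixed cells. Mrc1, the mannose receptor that macrophages also make and that the macrophage rule uses, was at 15.5 CPM in cKO and 56.7 CPM in WT. Of 10 sinusoidal genes past 20 CPM, 5 had an interval below 1 and 3 above 1, with a median of -0.33, and -0.42 in unmixed cells. Of 14 scavenger and lipid uptake genes, 8 had an interval below 1 and 2 above 1, with a median of -0.34 in both sets. Macrophage markers, of which Mrc1 is 1, were at 875 CPM in cKO and 1534 CPM in WT, as given above, and their part in this group was not tested.

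Basement membrane and clotting genes went in more than one direction. Lama4, the laminin chain of endothelial basement membrane, was at 299 CPM in cKO and 492 CPM in WT, a ratio of 0.607 (0.562 to 0.656), and 0.538 in unmixed cells. Lamc1 and Col15a1 were at 0.720 and 0.722 in all cells and passed the rule in unmixed cells at 0.636 and 0.656. Col4a1, the abundant collagen of vascular basement membranes, had a ratio of 1.09, and 0.994 in unmixed cells. Of 24 matrix genes, 5 had an interval above 1 and 9 below 1, with a median of -0.08, and -0.10 in unmixed cells. Procr, the endothelial protein C receptor, was at 66.3 CPM in cKO and 112 CPM in WT, a ratio of 0.591 (0.501 to 0.696). Plat, the tissue plasminogen activator, was at 34.1 CPM in cKO and 63.3 CPM in WT, a ratio of 0.539 (0.428 to 0.674). Angptl4, an inhibitor of lipoprotein lipase, was at 67.5 CPM in cKO and 113 CPM in WT, a ratio of 0.598, and Odc1, the first enzyme of polyamine synthesis, was at 195 CPM in cKO and 437 CPM in WT, a ratio of 0.446 (0.407 to 0.488). Among unmixed cells the ratios were 0.531 for Procr, 0.429 for Plat, 0.528 for Angptl4 and 0.374 for Odc1. With cells thinned to 3731 UMIs, Procr had a ratio of 1.14 (0.690 to 1.84) and Angptl4 1.18 (0.707 to 1.93). Thbd, the receptor thrombomodulin, was at 36.3 CPM in cKO and 17.1 CPM in WT (2.12, 1.57 to 2.86), below the level needed for a call. Of 13 clotting and fibrinolysis genes past 20 CPM, 5 had an interval above 1 and 3 below 1, and the median was 0.10, and 0.13 in unmixed cells. Of the 11 past 50 CPM, 2 were called in each direction.

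None of the VEGF and TIE receptors named here was called in either direction. Kdr, the main VEGF receptor and a rule gene, was at 555 CPM in cKO and 500 CPM in WT, and at 648 CPM in cKO and 664 CPM in WT unmixed cells. Flt1, also a rule gene, was at 597 CPM in cKO and 598 CPM in WT, and both are given as a description. Flt4, the receptor of VEGF-C, had a ratio of 0.895 (0.785 to 1.02), and Nrp1, a co-receptor, 0.918 (0.857 to 0.983). Tie1 had 0.983 (0.868 to 1.11) and Tek, the angiopoietin receptor, 1.12 (0.978 to 1.28). The unmixed ratios were 0.798 for Flt4, 0.830 for Nrp1, 0.805 for Tie1 and 0.993 for Tek, with intervals below 1 for Flt4 (0.695 to 0.915), Nrp1 (0.769 to 0.896) and Tie1 (0.703 to 0.920). Nos3, the endothelial nitric oxide synthase, had a ratio of 0.916 (0.788 to 1.06), and 0.796 (0.679 to 0.932) in unmixed cells.

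Of the 24 genes of the copper list only 6 reached 50 CPM, and none of these was called, against 3.9% of all genes tested. Slc31a1, at 37.5 CPM in cKO and 46.8 CPM in WT, was below the level needed for a call. Atox1, the copper chaperone of the secretory pathway, was at 490 CPM in cKO and 550 CPM in WT, a ratio of 0.890 (0.835 to 0.948), and 0.798 in unmixed cells. Atp7a, the exporting pump, had a ratio of 1.00 (0.832 to 1.21), Cox17, a chaperone of cytochrome oxidase, 0.878, and the metallothionein Mt1 0.929 (0.824 to 1.05). Of 12 genes past 20 CPM, 1 had an interval above 1 and 3 below 1, with a median of -0.05, and -0.02 in unmixed cells. Of 14 antioxidant genes, 5 had an interval above 1 and none below 1, and the median was 0.15, and 0.09 in unmixed cells. None of the 11 past 50 CPM was called. The lists of immediate early, hypoxia and interferon genes had medians of 0.01, 0.03 and 0.06, and of -0.08, 0.08 and 0.02 in unmixed cells, with no gene called in either. Over all endothelial cells 11, 14 and 3 of their genes reached 50 CPM.

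**Figure D4:**
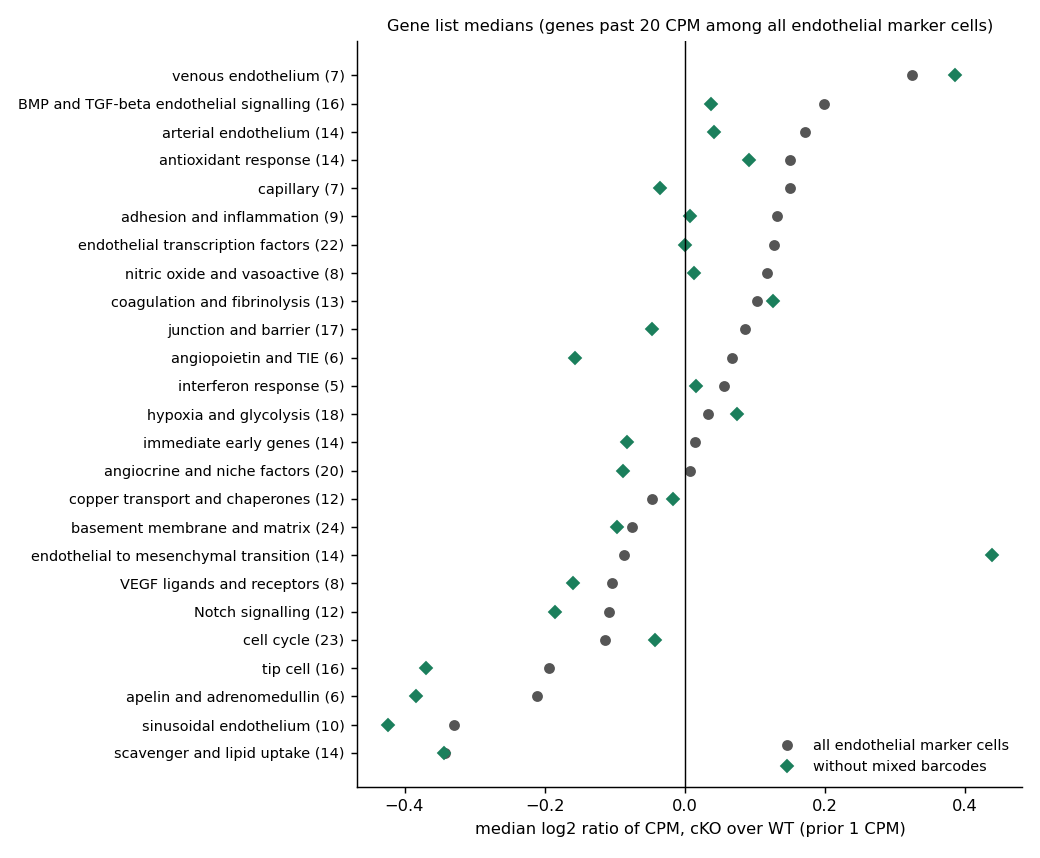
Median log2 ratio, cKO over WT, with 1 CPM added, for the 25 pathway and subtype lists with at least 5 genes past 20 CPM, in all endothelial cells (grey circles) and in unmixed cells (green diamonds), with the number of genes past 20 CPM in brackets. Of the lists drawn, venous genes lie highest over all cells (0.32) and sinusoidal and scavenger genes lowest (-0.33 and -0.34), the lymphatic list, with 2 genes past 20 CPM and a median of -0.43, is not drawn, and the list of endothelial to mesenchymal transition lies at -0.09 in all cells and 0.44 in unmixed cells.

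Leaving out mixed barcodes changed some genes of other classes more than the endothelial ones. Col1a1, the collagen chain of bone and stroma, was at 1138 CPM in cKO and 2097 CPM in WT endothelial cells (0.542, 0.522 to 0.564), but at 640 CPM in cKO and 437 CPM in WT unmixed cells (1.46, 1.36 to 1.58). Timp3, a protease inhibitor of stroma, had ratios of 0.488 in all and 1.45 in unmixed cells. The contractile gene Tagln was at 772 CPM in cKO and 471 CPM in WT (1.64), and the ratio was 2.74 in unmixed cells and 0.880 with cells thinned to 3731 UMIs. The calcium-binding gene S100a4 had ratios of 1.72 in all and 4.23 in unmixed cells, and 1 cKO cell gave 39.9% of its cKO UMIs. In unmixed cells the mesenchymal markers summed to 1751 CPM in cKO and 1096 CPM in WT, which moves with these genes, and its part was not tested. Col1a1 is itself 1 of the 13 markers in that sum, so the 2 are not independent. Of 14 genes on the list of endothelial to mesenchymal transition past 20 CPM, 4 had an interval above 1 and 6 below 1 in all cells, and of 12 in unmixed cells 7 lay above 1 and 2 below.

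The endothelial cells fell into 11 clusters (Leiden, resolution 1), and 5 of them, with fewer than 10% mixed barcodes each, held 159 cells (59 cKO and 100 WT). Cluster sizes are not compared between genotypes, because with 1 library each a cluster filled mostly by 1 library may be that library rather than a type. The largest cluster, of 50 cells, held 5 cKO and 45 WT cells and was led by Adamts17, Ednrb, Kcnj8, Trp53i11 and Gpihbp1, followed by Abcc9, Cldn5 and Inhbb. It also had 8 of 16 tip cell markers at 2-fold or more over the other clusters, and was left unnamed because mural genes were among its leading genes. Kcne3 (744 CPM in the cluster, 185 CPM in the others) and Trp53i11 (573 and 93.8 CPM) had higher levels in it and were also lower in cKO over all endothelial cells. So were its leading genes Kcnj8, Gpihbp1, Abcc9, Cldn5 and Inhbb. These ratios are therefore not separate observations, and the part of the cluster in them was not tested.

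Of the other endothelial clusters, 1 was cycling-like (12 cKO and 23 WT cells, with 26 of 26 cell cycle markers at 2-fold or more over the other clusters). A venous-like cluster (17 cKO and 11 WT cells) was led by Selp and Sele, at 201 and 60.7 CPM there and 17.6 and 3.17 CPM in the others, and by Ankrd1. Another cluster, led by Lef1, Dcn, Odc1 and Jag1 (15 cKO and 13 WT cells), had no name by the markers. None of its cells was mixed, and Dcn had no UMI in unmixed cKO cells, so its Dcn came from WT cells only. Over all endothelial cells Lef1 had 49 UMIs in cKO, 42.9% of them from 1 cell, and 17 UMIs in WT. Neither gene is therefore shown to be a shared trait of the cluster. A cluster of 18 cells (10 cKO and 8 WT) was led by Gja5 and Vwf, with 11 of 17 arterial markers at 2-fold or more. Each cluster was defined by the genes tested, so what follows is a description of levels within it.

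Within the cycling-like, venous-like and Lef1 clusters the main genes could be set side by side. Smad6 was at 400 CPM in cKO and 115 CPM in WT cells of the cycling-like cluster (3.47, 2.67 to 4.55). It was at 730 CPM in cKO and 408 CPM in WT cells of the venous-like cluster (1.79, 1.46 to 2.21), and at 762 CPM in cKO and 230 CPM in WT cells of the Lef1 cluster (3.31, 2.71 to 4.07). All 3 intervals lay above 1. Slco2a1 likewise had ratios of 4.24, 2.48 and 2.97 in that order of clusters, and Sgk1 had 2.51, 1.33 and 2.18.

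Apln behaved otherwise in the venous-like cluster. It was at 347 CPM in cKO and 1239 CPM in WT cells of the cycling-like cluster (0.280, 0.237 to 0.329) and at 826 CPM in cKO and 1792 CPM in WT cells of the Lef1 cluster, but at 871 CPM in cKO and 972 CPM in WT venous-like cells (0.896). Kcne3 had ratios of 0.442, 1.43 and 0.429 in the same order, and Igfbp3 0.376, 1.78 and 0.399. Lama4 was below 1 in each, at 0.627, 0.245 and 0.451, and so was Stab2, at 0.166, 0.653 and 0.457. Heg1 and Cyyr1 had ratios of 1.12 and 0.936 in the venous-like cluster, where their intervals included 1, and of 2.27 and 2.63 in the cycling-like cluster. Slc31a1 had ratios of 1.04, 0.940 and 0.760 in the same order.

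**Figure D5:**
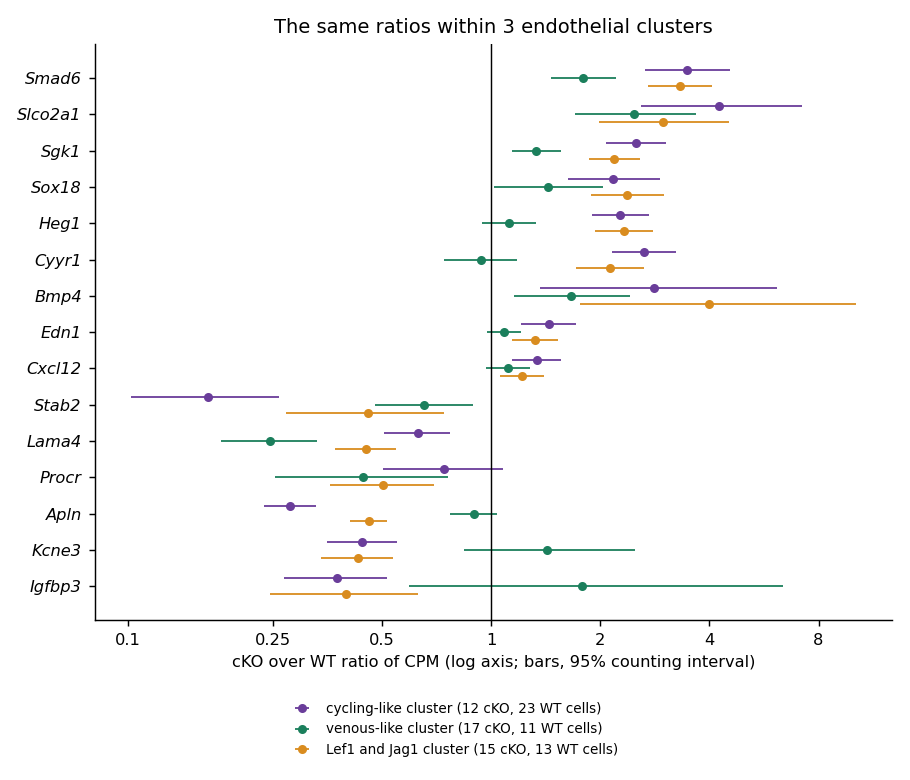
Ratio of CPM, cKO over WT, on a log axis for 15 genes within the cycling-like (purple), venous-like (green) and Lef1 and Jag1 (orange) clusters, with 95% counting intervals. Smad6 lies above 1 in all 3 clusters, while Apln lies at 0.280 and 0.461 in the cycling-like and Lef1 clusters and at 0.896 in the venous-like one.

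Cycling was counted as the share of cells with at least 3 of 26 cell cycle genes once each cell was thinned to 3731 UMIs, which left out 11 cKO and 23 WT cells. It was 46.2% of 91 cKO cells (35.6 to 56.9%) and 59.2% of 211 WT cells (52.3 to 65.9%), a difference of -13.1 points (-25.3 to -0.887). Asking for at least 2 genes gave a difference of -4.06 points (-15.5 to 7.38), whose interval included 0, and at least 5 genes gave -22.1 points (-32.9 to -11.3). In unmixed cells it was 39.4% of 66 cKO cells and 41.6% of 113 WT cells, a difference of -2.20 points (-17.1 to 12.7). Without thinning, 85.3% of cKO and 92.7% of WT endothelial cells passed. At the same thinned depth the shares were 46.7% in cKO and 59.2% in WT mesenchymal-marked cells, and 65.6% in cKO and 60.8% in WT macrophage-marked cells. Top2a, the topoisomerase of dividing cells, was at 98.8 CPM in cKO and 154 CPM in WT (0.643), and had a ratio of 0.686 in unmixed cells. Of 23 cell cycle genes past 20 CPM, 8 had an interval below 1 and none above 1 in all cells, with a median of -0.11. In unmixed cells 6 had an interval below 1 and 4 above 1, and the median was -0.04. Of 12 past 50 CPM in all cells, 2 were called lower and none higher. Of 13 past 50 CPM in unmixed cells, 1 was called higher and none lower.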

How the data were processed

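Adherent bone marrow cells of 1 cKO and 1 WT library were profiled with the 10x Chromium 3' kit. The deposited values are raw UMI counts, and the file headers name Cell Ranger 7.1.0 as the program that made them. The build was mm10 (GRCm38) and Seurat was used, per the submitters' processing notes. The counting of intronic reads is not given in the sources used. No cell annotation of the authors was used.

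From these counts, barcodes were kept with at least 500 genes, 1000 UMIs and at most 15% mitochondrial UMIs, and classes were assigned by marker rules. The members and gene lists were chosen with earlier results of these data known. UMIs were summed per library and class and scaled to CPM. A gene was called when it had at least 50 CPM in either library, a ratio past 1.5-fold and an exact conditional binomial 95% interval without 1. Shares have Clopper-Pearson intervals, levels Poisson intervals. Since each group had 1 library, there are no p-values. Log2 ratios used a prior of 1 CPM, and list medians took genes with at least 20 CPM. Simulated counts with known folds were used to test the ratio calculation. Depth was 126031142 UMIs in the cKO and 152398639 in the WT library.

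Doublets were not removed. Mixed barcodes are reported separately, and removing the highest Scrublet scores of each library (243 cKO and 534 WT barcodes) was an alternative. Endothelial cells were clustered with Leiden (resolution 1, 15 neighbours, 15 components, 2000 variable genes). Named genes were the rule genes, Slc31a1 and Prrx1, the 12 highest and 12 lowest ratios among endothelial-enriched genes, the 6 highest and lowest among others, up to 4 genes of each list, and the 15 most enriched genes. Any other gene was picked with its values already in view. Alternatives changed the barcode filter, the rule, the scaling, the weighting of cells, depth, the CPM floor and clustering, and cells of endothelial-led clusters, and unmixed cells with other scalings, were added after seeing the data. Software was Python 3.11.15, numpy 2.4.6, scipy 1.17.1, pandas 2.3.3, scanpy 1.11.5, leidenalg 0.10.2 and matplotlib 3.10.9.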

Additional observations from a re-analysis of the deposited data

Results flagged for a closer look

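Several genes called higher in unmixed endothelial cells were at least 1.5-fold lower in another class of the same libraries, with an interval below 1 and at least 10 UMIs in each library. Bmp4 had a ratio of 1.98 (1.58 to 2.49) in unmixed endothelial cells, 0.489 (0.451 to 0.529) in mesenchymal-marked cells and 0.421 (0.233 to 0.728) in macrophage-marked cells. In macrophage-marked cells Bmp4 rested on 18 cKO and 55 WT UMIs. Over all endothelial cells, 1 cKO cell gave 21.5% of the cKO Bmp4 UMIs. The endothelial ratio of Bmp4 was 4.05 times the mesenchymal one (3.20 to 5.12) and 4.70 times the macrophage one (2.64 to 8.36). The related ligand Bmp6 had a ratio of 2.38 in unmixed endothelial cells and 0.505 in mesenchymal-marked cells, where it was at 5.34 CPM in cKO and 10.6 CPM in WT.

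Icam1 had a ratio of 1.83 in unmixed endothelial cells and 0.645 in mesenchymal-marked cells, where it was at 1.12 CPM in cKO and 1.74 CPM in WT. Cyyr1 had 1.54 in endothelial and 0.621 in mesenchymal-marked cells, with 129 cKO and 248 WT UMIs there. Against macrophage-marked cells, Heg1 had 1.69 and 0.641, Sulf1, an enzyme that trims heparan sulfate, had 4.13 and 0.575, and Cxcl12 had 1.53 and 0.642, the endothelial ratio first. Cxcl12 in macrophage-marked cells was at 28.7 CPM in cKO and 44.7 CPM in WT, against 305 CPM in cKO and 373 CPM in WT mesenchymal-marked cells. RNA carried over from mesenchymal cells was not measured, and its part was not tested. With 1 library per group these differences between classes were not tested across samples.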

How the results depend on the processing

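No paired analysis was possible because each genotype had 1 library. The endothelial share difference of -1.01 points was -0.503 with 5 rule genes, -0.570 with a rule sum of 10 and -0.210 without mixed barcodes. The 54 genes called higher became 99 without mixed barcodes, 180 with cells weighted equally, 272 with cells thinned, 254 at 10 CPM, 29 at 100 CPM and 117 in endothelial-led clusters, and 152 (equal weight) or 126 (median of ratios) among unmixed cells. The 112 called lower became 253 with equal weight, 292 thinned, 405 at 10 CPM, 53 at 100 CPM and 259 unmixed with equal weight. The counts with equal weight used the CPM floor and the fold only, without an interval, so they follow a looser rule than the others. Of the called genes, 32.5% were higher as reported, 40.0% with median of ratios and 52.5% in endothelial-led clusters. List medians above 0 numbered 16 of 28 and 9 with a rule sum of 10. A resolution of 0.5 gave 7 clusters in place of 11. With cells thinned, 96 of 129 ratios of named genes other than Slc31a1 moved outside their all-cell counting interval, besides 4 that reversed. With cells weighted equally 93 of 130 moved outside it, besides 2 that reversed. Of 28 list medians, 21 moved by more than counting error when thinned and 20 with equal weight. Among genes called in all cells, 14 alternative ratios lay on the other side of 1. Thinned, these were Procr 1.14, Angptl4 1.18, Stab2 1.68 and Tagln 0.880, and with equal weight Stab2 1.04 and Tagln 0.957. Without mixed barcodes they were Timp3 1.45, Lpl 1.04 and Col1a1 1.46 (1.5, 1.07 and 1.51 with median of ratios), and in endothelial-led clusters Igkc 1.15 and Lpl 1.58. The cause was not tested. Smad6 stayed between 2.99 and 3.97 and Apln between 0.442 and 0.622 over 14 alternatives, and Slc31a1 between 0.667 and 0.936. Other genes ranged more widely, such as Kcnj8 between 0.242 and 0.795 and Mcam between 0.666 and 1.09. Depth limits genes under 50 CPM, and the 3 clusters compared rest on 11 to 23 cells per library.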

Other observations

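A few genes outside the lists had large ratios within clusters, and were chosen after their values were seen. Mctp1, a calcium-binding membrane protein, was at 117 CPM in cKO and 51.0 CPM in WT endothelial cells (2.30), and had ratios of 10.8 (6.31 to 19.9) in the cycling-like, 0.533 (0.406 to 0.699) in the venous-like and 16.9 (5.42 to 85.4) in the Lef1 cluster. It rested on 43 cKO and 3 WT UMIs in the last of these. Boc, a hedgehog co-receptor, had ratios of 9.47, 1.70 and 3.99 in the same clusters, with 21 cKO and 3 WT UMIs in the first. Glul, glutamine synthetase, had ratios of 2.61, 1.71 and 2.86, and Sncaip had 0.367, 0.137 and 0.226.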
